A study of Rattus norvegicus with 20 samples.

Results

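Laminins, nidogens, agrin and type IV collagens assemble into basement membranes, the thin sheets of extracellular matrix that lie under endothelium, around mural cells and under the glial endfeet at the brain surface and along its vessels. Each laminin is a trimer of 1 alpha, 1 beta and 1 gamma chain. Nidogens tie the laminin network to type IV collagen, and cells hold on to the sheet through integrins, which are receptors made of an alpha and a beta chain, and through dystroglycan. The supraoptic nucleus (SON) of the hypothalamus holds the magnocellular neurons that make vasopressin and oxytocin. It is densely supplied with capillaries and lies at the ventral surface of the brain, where glial endfeet meet the pial basement membrane.

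The genes described here are those whose symbol names a laminin chain, an integrin chain, a nidogen, agrin, fibronectin, dystroglycan, Sparc, a fibulin, or netrin 1 or 4, which resemble laminins. In all 47 of the 32402 Ensembl genes in the tables carried such a symbol. A mean normalized count of at least 10 in each of the 3 tables was reached by 46 of them, 11 laminin chains, 23 integrin chains and 12 others. *Itga2* fell below it, with means of 1.46 to 3.06 in the groups, and was not tested. *Hspg2*, *Itgad* and *Lamb4* were not analysed here.

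Messenger RNA was measured by RNA sequencing in SON punches from 20 male Wistar Han rats, 5 in each of 4 groups. Adult rats were 3 months old and aged rats 18 months. Euhydrated rats (adult EH, aged EH) drank freely, and dehydrated rats (adult DH, aged DH) had their water removed, for 2 days per the labels and 72 h per the study's methods. For the aged rats bought for the study, the methods state housing in groups of 3 and assignment of whole cages to EH or DH. They also state that adult and aged rats were handled in parallel by the same team. The paper describes the adult data as sequenced and published earlier. Its methods state that RNA of both ages went for sequencing at the same time. Each library is 1 rat and carried 24268398 to 30348118 reads on genes. Values are normalized counts, that is read counts divided by a size factor of the library, and the 3 comparisons have 1 table each with its own size factors, so that the same library differs slightly in scale between tables. *Avp* and *Oxt*, which define magnocellular neurons, were high in every library, with summed normalized counts of 193900 to 473600. A punch holds many cell types, and in such bulk RNA fewer cells of a type and less RNA per cell cannot be told apart.

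Ageing was examined by comparing aged EH with adult EH. Of the 46 members, 12 were lower in aged EH and 2 were higher at an adjusted p under 0.05 (limma on log2 of the normalized count plus 1, two-sided, Benjamini-Hochberg over all genes tested). Calls given here are by limma unless another tool is named. Among all 15369 genes tested 5.99% passed, 3.3% lower and 2.69% higher. The median log2 fold change of the members was -0.193, beside 3e-04 for all genes. Laminin chains made up 7 of the 12 lower members. The others were *Nid2*, *Sparc*, *Fbln1*, the shared integrin chain *Itgb1* and dystroglycan (*Dag1*). Both higher members were leukocyte integrin chains, *Itgam* and *Itgb2*.

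**Figure D1:**
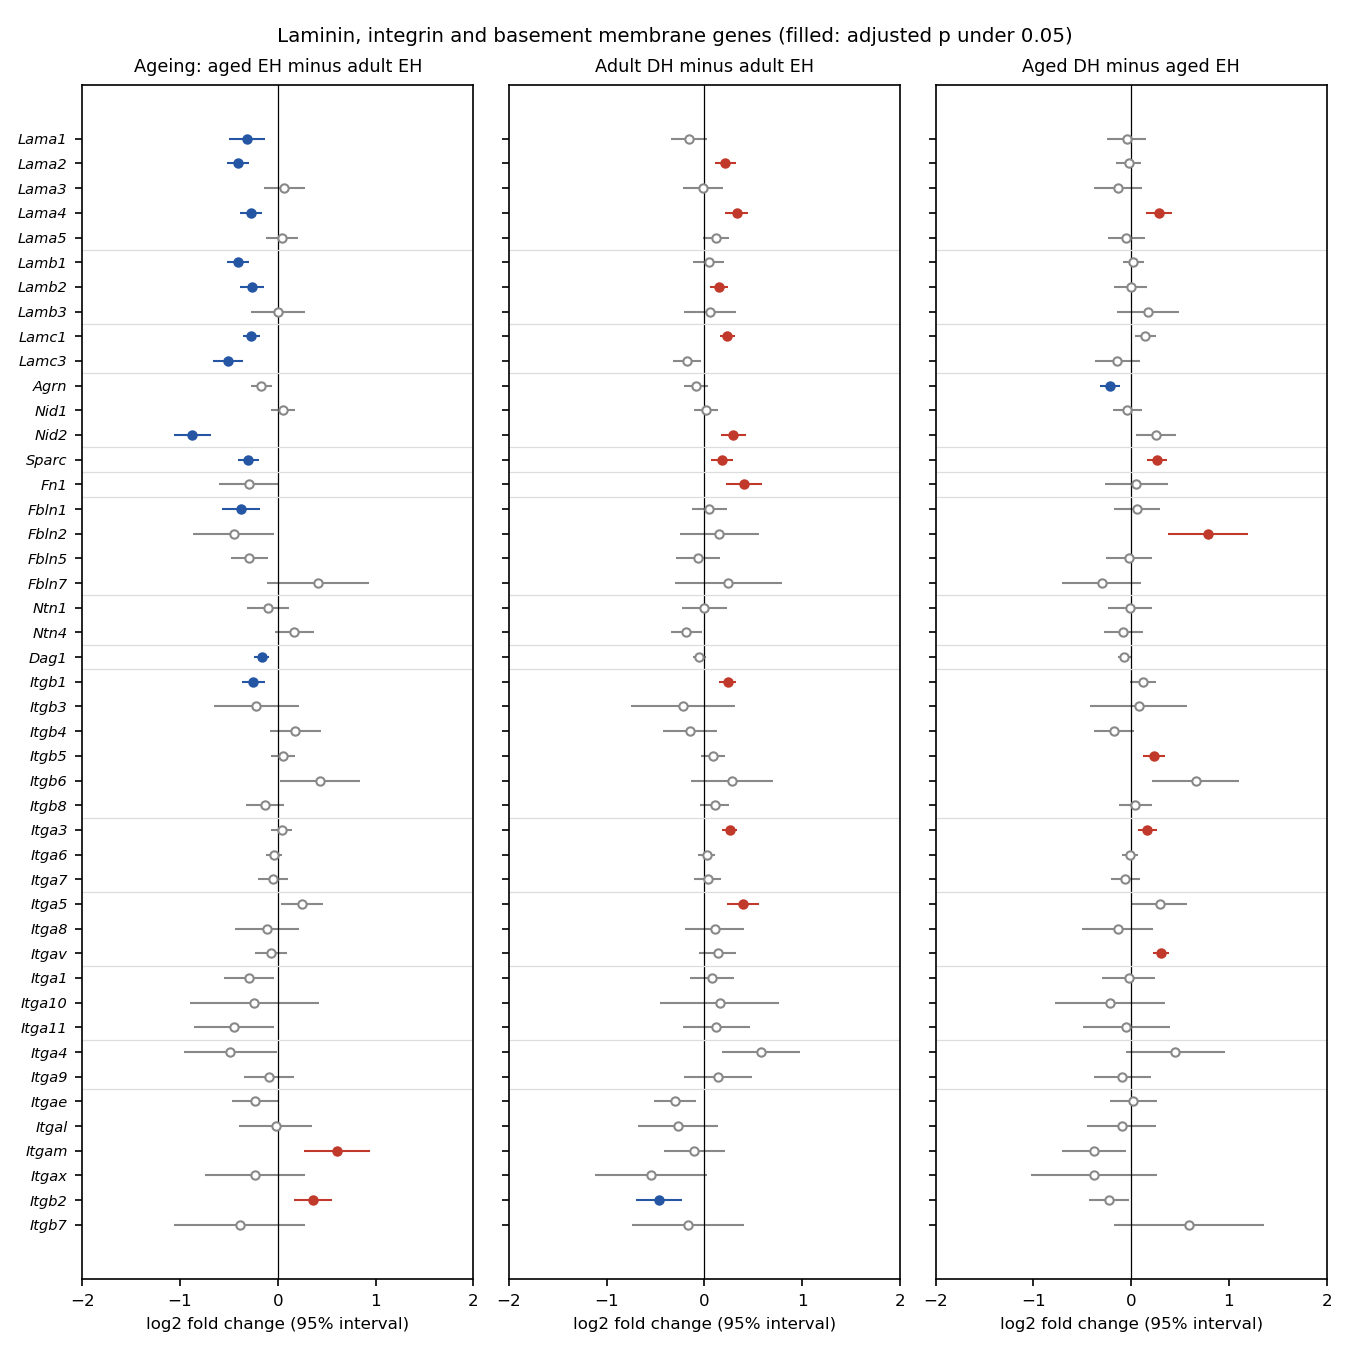
Log2 fold changes of 45 members (y axis, grouped by role) in ageing, adult DH and aged DH; points are limma estimates, bars their 95% intervals, and filled points passed an adjusted p under 0.05 (red higher, blue lower). In ageing 12 filled points lie below 0 and 2 above; in adult DH 10 lie above and 1 below; in aged DH 6 lie above and 1 below.

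The promoters of the most clearly lowered laminin alpha and beta chains and of both lowered gamma chains are printed here because these chains were all lower in ageing. The sequences are from RefSeq, assembly GRCr8, and were matched by symbol, which found 34 of the 47 genes. Each covers the 250 bases before the annotated start, read 5′ to 3′ on the gene's strand. The windows are chr1:19491896-19492145 (plus strand) for *Lama2*, chr6:53562846-53563095 (plus) for *Lamb1*, chr13:68051987-68052236 (minus) for *Lamc1* and chr3:35562739-35562988 (plus) for *Lamc3*. Capitals mark the GC box GGGCGG on either strand (CCGCCC on the other).
Lama2: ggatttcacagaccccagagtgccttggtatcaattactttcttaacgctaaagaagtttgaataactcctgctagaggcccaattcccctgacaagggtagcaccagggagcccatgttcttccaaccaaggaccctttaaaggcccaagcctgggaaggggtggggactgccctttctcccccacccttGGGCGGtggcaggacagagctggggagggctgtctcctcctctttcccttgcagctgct
Lamb1: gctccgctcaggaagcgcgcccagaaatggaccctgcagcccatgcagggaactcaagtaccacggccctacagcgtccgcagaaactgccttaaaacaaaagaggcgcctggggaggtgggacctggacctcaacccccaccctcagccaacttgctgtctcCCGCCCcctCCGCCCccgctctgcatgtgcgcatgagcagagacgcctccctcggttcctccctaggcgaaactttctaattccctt
Lamc1: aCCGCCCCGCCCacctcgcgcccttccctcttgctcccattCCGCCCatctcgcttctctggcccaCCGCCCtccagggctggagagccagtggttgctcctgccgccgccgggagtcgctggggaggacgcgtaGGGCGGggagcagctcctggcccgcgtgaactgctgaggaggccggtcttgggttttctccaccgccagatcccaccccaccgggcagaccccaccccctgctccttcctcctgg
Lamc3: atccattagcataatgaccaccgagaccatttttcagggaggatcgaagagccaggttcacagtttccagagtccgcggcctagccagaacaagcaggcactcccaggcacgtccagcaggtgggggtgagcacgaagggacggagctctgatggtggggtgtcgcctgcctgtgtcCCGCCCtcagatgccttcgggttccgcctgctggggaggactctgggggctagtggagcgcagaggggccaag

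The window of *Lamc1* held 5 GC boxes, of which 2 overlap, that of *Lamb1* held 2, and those of *Lama2* and *Lamc3* held 1 each. Their GC content was 55.6% in *Lama2*, 62% in *Lamb1* and in *Lamc3*, and 71.2% in *Lamc1*. A GC box was present in 17 of 35 member promoters (48.571%, 33 tested genes) and in 30.467% of all 33469 promoters of that length. The member promoters were limited to genes that passed the mean filter, and the set of all promoters was not. The shares given here are thus not of like sets. Among the 12 members lower in ageing 8 had a promoter, and 5 of these held it (*Itgb1*, *Lama2*, *Lamb1*, *Lamc1* and *Lamc3*). Among members higher in adult DH 5 of 7 promoters held it (*Itga3*, *Itga5*, *Itgb1*, *Lama2* and *Lamc1*). The letters TATAAA, searched on both strands, occurred in 2 member promoters, *Lama4* and *Itgb7*, and in 12.931% of all promoters. The AP-1 element TGACTCA, also searched on both strands, occurred in 2, *Lama3* and *Itgax*, and in 4.046% of all. These matches describe letters and not bound sites.

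*Nid2*, which encodes nidogen 2, a linker between laminin and type IV collagen, had the largest fold change of the members in ageing among those called. Its normalized counts were 484, 507, 535, 534 and 473 in the adult EH rats. They were 315, 311, 223, 283 and 257 in the aged EH rats. The groups did not overlap. The log2 fold change was -0.87 ± 0.09 (SE, n = 5 per group, limma adjusted p = 0.000149). *Nid1*, the other nidogen, averaged 4149 ± 309 (SD, n = 5) in aged EH and 3999 ± 270.1 in adult EH, a log2 fold change of 0.05 ± 0.06 that did not pass (adjusted p = 0.674).

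Of the laminin alpha chains, *Lama2*, which is the chain of glial endfeet and muscle, read 884, 909, 933, 809.8 and 891 in adult EH. In aged EH it read 683, 716, 623, 655 and 655. All aged rats were below all adult rats, with a log2 fold change of -0.41 ± 0.05 (adjusted p = 0.000632). *Lama4*, a chain of the endothelial basement membrane, read 780.2, 770.04, 749.6, 852 and 845 in adult EH and 654, 646, 713, 640.5 and 645 in aged EH. Here too the groups did not overlap, and 1 aged rat, replicate 4, stood above the other 4. Its log2 fold change was -0.28 ± 0.05 (adjusted p = 0.00791). *Lama1* was 429.6 ± 32 (SD) in adult EH and 346 ± 44.3 in aged EH with ranges of 396 to 483 and 311 to 397 that just touched, and its log2 fold change of -0.32 ± 0.09 passed narrowly (adjusted p = 0.0462). *Lama1* lost its call on leaving out any of 8 single libraries (aged EH replicates 1, 2 and 4 and the 5 adult EH rats), with adjusted p up to 0.105. The chains *Lama3* and *Lama5* did not pass, at 0.07 ± 0.10 and 0.04 ± 0.08.

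*Lamb1*, a beta chain of many laminin trimers, gave 828, 829, 881, 973 and 897 in the adult EH rats. The aged EH rats gave 653, 645, 679.6, 638 and 699. Every adult rat exceeded every aged rat, and the log2 fold change was -0.41 ± 0.05 (adjusted p = 0.000707). *Lamb2*, a beta chain of vessel and neuromuscular basement membranes, fell from 3168 ± 161 to 2645 ± 223 (SD, n = 5 each), again without overlap, a log2 fold change of -0.26 ± 0.06 (adjusted p = 0.0151). *Lamb3*, with *Lama3* a chain of the epithelial laminin, had a log2 fold change of 0.00 ± 0.13 and did not pass.

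*Lamc1*, the gamma chain found in most laminins, was 2125, 2003, 2016, 2116 and 2131 in adult EH. In aged EH it was 1853, 1668, 1765, 1694 and 1636. The 2 ranges were separate, and the log2 fold change was -0.27 ± 0.04 (adjusted p = 0.00191). *Lamc3*, a gamma chain of more restricted expression, was 417, 457, 473, 447 and 471 in adult EH and 325, 351, 283, 345 and 289 in aged EH. Its groups were also separate, at a log2 fold change of -0.51 ± 0.07 (adjusted p = 0.00151).

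**Figure D2:**
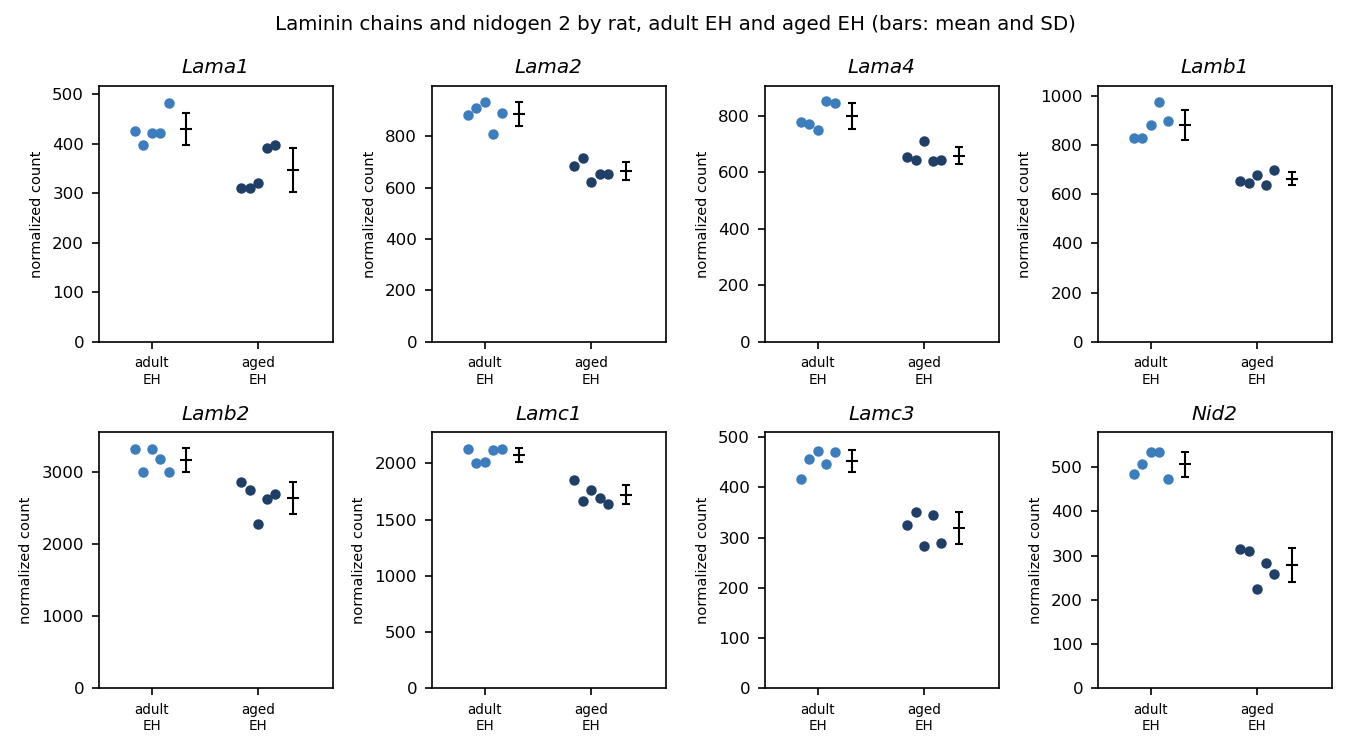
Normalized counts (y axis, from 0) of the 7 laminin chains called in ageing and of Nid2 in each adult EH and aged EH rat; points are rats and bars the mean and SD of 5. In all panels but Lama1 every aged EH rat lies below every adult EH rat. The genes were chosen by their calls in this same comparison, which favours groups that do not overlap. The share of all genes without overlap was not computed.

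Among the other matrix members, *Sparc*, a collagen-binding matricellular protein, was 57083, 60840, 57168, 51178 and 62592 in adult EH. The aged EH rats had 44031, 47374, 48381, 47916 and 46325. The groups did not overlap, and the log2 fold change was -0.30 ± 0.05 (adjusted p = 0.00387). *Fbln1*, a fibulin that binds fibronectin and laminin, fell from 2501 ± 228 to 1938 ± 279.9 (SD) without overlap, a log2 fold change of -0.38 ± 0.09 (adjusted p = 0.028), but leaving out any of 4 single libraries (aged EH replicate 5 and adult EH replicates 2, 4 and 5) took it out of the calls, with adjusted p of at most 0.0621. Values for *Fbln2*, *Fbln5* and fibronectin (*Fn1*) were -0.45 ± 0.19, -0.29 ± 0.09 and -0.29 ± 0.14, none of which passed. Agrin (*Agrn*), a proteoglycan that clusters synaptic receptors and binds dystroglycan, was -0.17 ± 0.05 (adjusted p = 0.0729), and passed by DESeq2 (adjusted p = 0.0329).

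Of the receptors, *Itgb1*, the beta chain shared by the laminin-, collagen- and fibronectin-binding integrins, was 6046, 5606, 5969, 6126 and 6130.2 in adult EH. It was 5123, 5635, 4387, 4938 and 5129.7 in aged EH. A single aged rat, replicate 2, lay above the lowest adult rat, and the log2 fold change was -0.25 ± 0.05 (adjusted p = 0.0161). *Dag1*, the laminin receptor that links the basement membrane to dystrophin, fell from 6097 ± 210.4 to 5445 ± 215 (SD) with no overlap, a log2 fold change of -0.16 ± 0.04 (adjusted p = 0.0161). Without the trend on the mean in limma *Lamb2*, *Itgb1* and *Dag1* lost their calls, with adjusted p of 0.0596, 0.0655 and 0.0589. None of the 11 integrin alpha chains tested outside the leukocyte group passed by limma, edgeR or DESeq2, and 4 had an unadjusted p under 0.05 by limma. The laminin-binding alpha chains *Itga3*, *Itga6* and *Itga7* lay at 0.04 ± 0.05, -0.04 ± 0.04 and -0.05 ± 0.07.

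*Itgam* and *Itgb2* encode the chains of complement receptor 3, carried by microglia and other myeloid cells. *Itgam* was 437, 566, 384, 364 and 378 in adult EH and 787, 440.4, 563, 733 and 756 in aged EH, with 2 aged rats within the adult range. *Itgb2* was 329.9, 295, 334, 318 and 339 in adult EH and 485, 433, 329, 429 and 414 in aged EH, with 1 aged rat within the adult range. The log2 fold changes were 0.61 ± 0.16 (adjusted p = 0.0365) and 0.36 ± 0.09 (adjusted p = 0.0322). Both calls were narrow. *Itgam* lost its call on leaving out any of 7 single libraries (aged EH replicates 1, 5 and 6 and adult EH replicates 1, 4, 5 and 6), with adjusted p of at most 0.0881. *Itgb2* lost it on leaving out any of 8 (all but aged EH replicate 4 and adult EH replicate 6), with at most 0.0734. The other leukocyte chains tested, *Itgae*, *Itgal*, *Itgax* and *Itgb7*, had values of -0.23, -0.02, -0.23 and -0.39. Of 10 microglial markers 3 rose (*Cx3cr1* and *P2ry12* among them), and their summed level was 11550 to 13120 in aged EH and 10130 to 11160 in adult EH. Of 3 perivascular macrophage markers *Cd163* rose, by 0.61 ± 0.16, while *Mrc1* and *Lyve1* were -0.28 ± 0.10 and -0.36 ± 0.25 and did not pass, and the summed level was 660.8 to 941.4 in aged EH and 705 to 1007 in adult EH. The part of these markers in the values of *Itgam* and *Itgb2* was not tested.

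**Figure D3:**
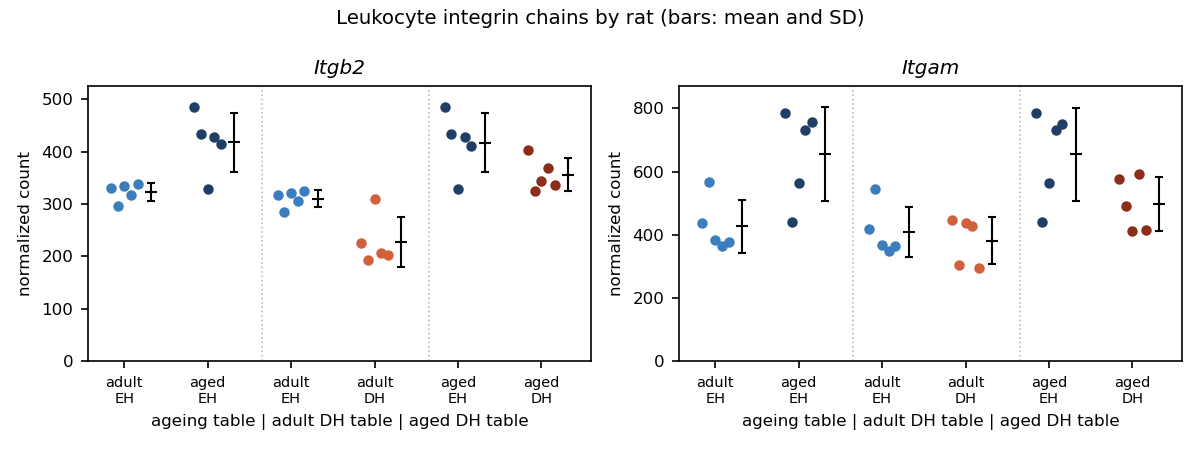
Normalized counts (y axis, from 0) of Itgb2 and Itgam in each rat of the ageing, adult DH and aged DH tables; points are rats, bars the mean and SD of 5, and dotted lines part the tables, which were scaled separately. Itgb2 is higher in 4 of 5 aged EH rats than in all adult EH rats and lower in 4 of 5 adult DH rats than in all adult EH rats.

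Markers of other cells moved with age too. Of the 10 tested markers of meningeal and perivascular fibroblasts, which make basement membrane proteins along with fibrillar collagens, 6 were lower in aged EH (*Col1a1*, *Col3a1*, *Igf2*, *Lum*, *Slc22a6* and *Aldh1a2*) and none higher. *Col1a1* was -1.66 ± 0.12 and *Col3a1* -1.34 ± 0.13 on the log2 scale. The summed level of this list was 10590 to 18140 in aged EH and 27660 to 33220 in adult EH, without overlap. *Col1a2* was at 0 in all libraries. Of 9 endothelial markers 2 were lower (summed level 11800 to 13550 in aged EH and 12940 to 13740 in adult EH), and of 9 mural cell markers 2 (18290 to 26210 and 20950 to 27280). Of 6 oligodendrocyte markers 4 were lower (235400 to 285800 and 264000 to 386900), and of 7 astrocyte markers 2 (162100 to 192400 and 162500 to 194900). How far these cell types account for the lower laminin, nidogen and *Sparc* values was not tested.

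Genes that work with the members were taken as lists. Of 7 basement membrane collagens tested, 3 were lower in ageing and none higher. These were *Col4a5* at -0.71 ± 0.08 (adjusted p = 0.000394), *Col4a1* at -0.45 ± 0.05 (adjusted p = 0.000436) and *Col18a1* at -0.30 ± 0.07 (adjusted p = 0.0194). The median of the list was -0.282. Of 17 remodelling enzymes and inhibitors 7 were lower and 1 higher. The membrane protease gene *Mmp14* was the lowest of them at -0.83 ± 0.08, and the gelatinase gene *Mmp9* rose by 1.17 ± 0.28. Also lower were *Pxdn*, which cross-links type IV collagen, at -0.50 ± 0.07, and *Adamts4*, *Adamts9*, *Loxl1*, *Bmp1* and *Mmp15*. Among 19 integrin adhesion adaptors *Fermt2*, *Ilk* and *Bcar1* were lower, between -0.17 and -0.14. None of 13 genes of the dystrophin-glycoprotein complex passed by limma, edgeR or DESeq2 (1 had an unadjusted p under 0.05). Of 8 dystroglycan glycosylation genes 0 passed by limma and edgeR and 1 by DESeq2 (1 had an unadjusted p under 0.05 by limma).

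The effect of DH in adult rats was examined next, by comparing adult DH with adult EH. These adult EH rats are the same as those in the ageing comparison, so the 2 comparisons are not independent. Of the 46 members 10 were higher and 1 lower in adult DH, beside 12.7% of all 15280 genes tested (7.67% higher and 4.99% lower). The median log2 fold change of the members was 0.065, and that of all genes -0.0073. The higher members were 4 laminin chains (*Lama2*, *Lama4*, *Lamb2* and *Lamc1*), *Nid2*, *Sparc*, *Fn1* and 3 integrin chains (*Itga3*, *Itga5* and *Itgb1*). *Itgb2* was the lower one.

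*Lama4* was 749, 739.9, 718, 817 and 811 in adult EH. It was 969, 997, 1049.5, 935 and 873 in adult DH. Every DH rat exceeded every EH rat, at a log2 fold change of 0.33 ± 0.06 (adjusted p = 0.00162). *Lamc1* was 2039, 1924, 1931, 2029.5 and 2044 in adult EH and 2385, 2387, 2374, 2388 and 2202 in adult DH. The DH rats stood apart from the EH rats, though 1 of them, replicate 5, was below the other 4, and the log2 fold change was 0.24 ± 0.03 (adjusted p = 0.000582). *Lama2* rose from 849 ± 44.1 to 983 ± 53.5 (SD, n = 5 each) without overlap, by 0.21 ± 0.05 (adjusted p = 0.0139). *Lamb2* was 3040 ± 152 (SD) in adult EH and 3371 ± 185 in adult DH. It rose by 0.15 ± 0.04 with overlapping groups and narrowly passed (adjusted p = 0.0402). It lost its call on leaving out any of 6 single libraries (adult EH replicates 2, 5 and 6 and adult DH replicates 1, 2 and 4), with adjusted p up to 0.092. *Lamb1* and *Lamc3*, both lower in ageing, had values of 0.04 ± 0.08 and -0.18 ± 0.07 that did not pass.

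*Nid2* was 465, 488, 512, 512 and 454 in adult EH and 601, 534, 659, 605 and 590.3 in adult DH. The groups did not overlap, and the log2 fold change was 0.30 ± 0.06 (adjusted p = 0.00617). *Sparc* rose from 55420 ± 4229 to 62660 ± 3499 (SD) with overlap, by 0.18 ± 0.05 (adjusted p = 0.0424), and it lost its call on leaving out any of 6 single libraries (adult EH replicates 1, 4 and 5 and adult DH replicates 1, 3 and 5), with adjusted p up to 0.0957. Fibronectin (*Fn1*), the matrix ligand of several integrins, was 3902, 4143, 5344, 3882 and 3930.4 in adult EH. It was 4943, 5798, 6394, 5545 and 5313 in adult DH. Only replicate 4 of the EH rats reached the DH range, and the log2 fold change was 0.41 ± 0.09 (adjusted p = 0.00724).

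The integrin chains that rose in adult DH include both chains of the main fibronectin receptor, *Itga5* and *Itgb1*. *Itga5* was 192, 191, 181, 179 and 191 in adult EH and 235, 235, 291, 239 and 231 in adult DH. The groups were separate, with DH replicate 3 above the rest, and the log2 fold change was 0.39 ± 0.08 (adjusted p = 0.0048). *Itgb1* was 5802, 5387, 5716, 5876 and 5881 in adult EH and 6679.8, 6726, 7410.5, 6758 and 6293 in adult DH. All DH rats were above all EH rats, at 0.24 ± 0.04 (adjusted p = 0.00168). *Itga3*, a laminin-binding alpha chain that pairs with *Itgb1*, was 2030.5, 2069, 2062, 1846 and 1980.2 in adult EH. It was 2332, 2363, 2393, 2406 and 2426 in adult DH. The DH rats lay close together and above all EH rats, with a log2 fold change of 0.26 ± 0.04 (adjusted p = 0.000349), the smallest adjusted p of the members in this comparison. *Itga6* and *Itga7* were 0.02 ± 0.04 and 0.03 ± 0.07 and did not pass. *Itga4*, an alpha chain that binds fibronectin and vascular cell adhesion molecule, was 0.58 ± 0.18 (adjusted p = 0.0554), and passed by DESeq2 (adjusted p = 0.0223).

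*Itgb2* was 317, 284, 319.97, 305 and 325 in adult EH. It was 224, 194, 309.96, 207 and 202 in adult DH. In DH 4 rats were below all EH rats and replicate 3 lay within the EH range, and the log2 fold change was -0.47 ± 0.11 (adjusted p = 0.0147). *Itgam* was -0.10 ± 0.14 (adjusted p = 0.702), with groups that overlapped. None of the 10 microglial markers passed by limma or edgeR and 1 by DESeq2 (5 had an unadjusted p under 0.05 by limma), and their summed level was 9248 to 10190 in adult DH and 9719 to 10720 in adult EH. Of 3 perivascular macrophage markers *Cd163* and *Mrc1* rose, by 1.16 ± 0.15 and 0.41 ± 0.09, and the summed level was 1052 to 1355 in DH and 676.5 to 966 in EH. The part of these cells in the *Itgb2* value was not tested.

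**Figure D4:**
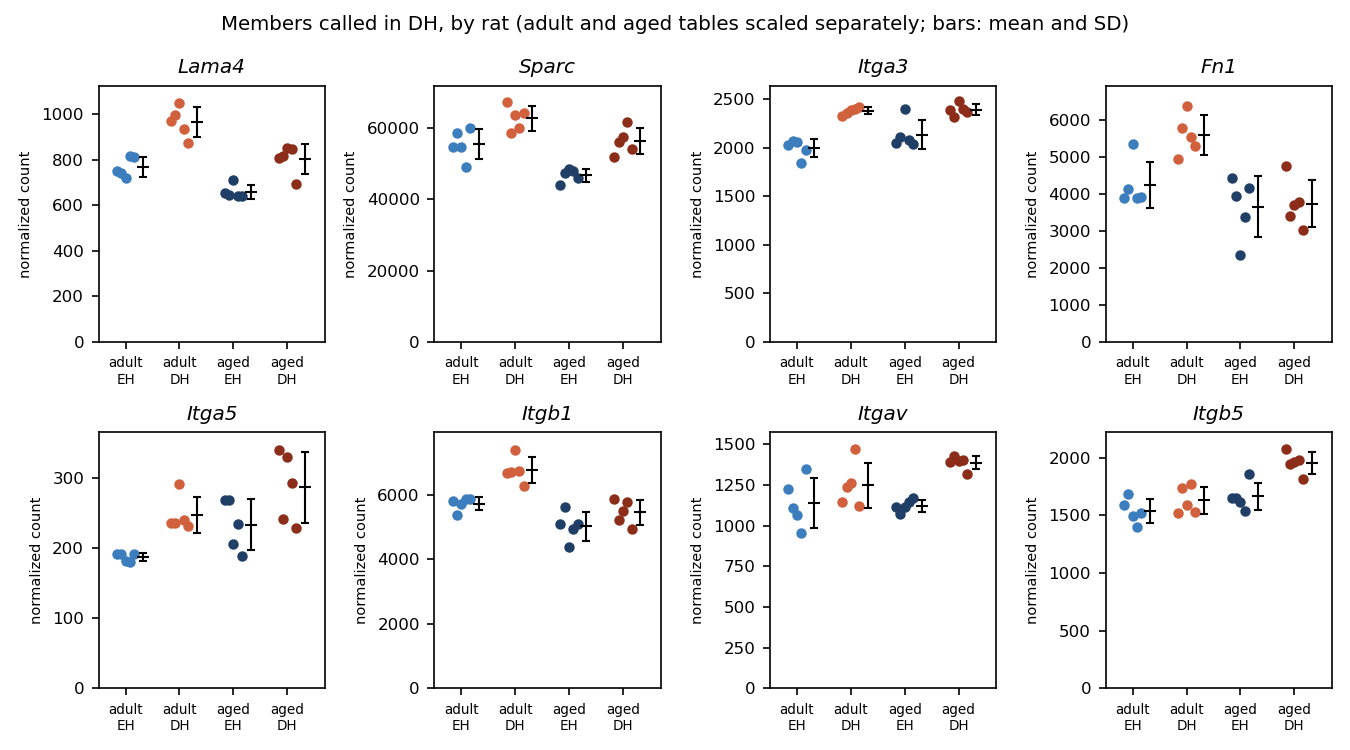
Normalized counts (y axis, from 0) of 8 members called in adult DH or aged DH in each rat; points are rats and bars the mean and SD of 5, and the adult and aged tables were scaled separately. Lama4, Sparc and Itga3 passed in DH at both ages, Fn1, Itga5 and Itgb1 in adult DH, and Itgav and Itgb5 in aged DH; the difference between the ages passed for none.

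Of the 11 laminin chains 4 were higher in adult DH, and the median of all 11 was 0.054. Of 7 basement membrane collagens tested, 5 were higher and none lower, and the median of the list was 0.28. *Col4a1* rose from 2272 ± 181 to 3245 ± 237 (SD), by 0.51 ± 0.06 (adjusted p = 7.4e-05). *Col4a2*, *Col4a5*, *Col4a4* and *Col18a1* rose by 0.28 ± 0.07, 0.28 ± 0.04, 0.20 ± 0.06 and 0.18 ± 0.05. Of the remodelling genes *Mmp9*, *Timp4* and *Timp3* rose, by 1.52 ± 0.28, 0.22 ± 0.06 and 0.15 ± 0.04, and *Mmp15* fell by 0.16 on the log2 scale. Among the integrin adaptors *Lims2*, *Zyx*, *Tns1* and *Tln1* rose and *Tln2* fell, with *Lims2* at 0.44 ± 0.10 and *Zyx* at 0.31 ± 0.05. *Pomgnt2*, a dystroglycan glycosyltransferase gene, rose by 0.27 ± 0.04. Of 13 genes of the dystrophin-glycoprotein complex 1 was lower. Of the cell type markers, 1 of 10 fibroblast markers rose (summed level 26780 to 32780 in DH and 26540 to 31820 in EH). So did 1 of 9 endothelial markers (12540 to 13930 and 12410 to 13160) and 1 of 9 mural markers (20680 to 29210 and 20100 to 26120).

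Aged DH was then compared with aged EH, the same 5 aged EH rats as in the ageing comparison. Of the 46 members 6 were higher and 1 lower, beside 7.29% of all 15346 genes (4.05% higher and 3.25% lower). The median of the members was -0.01 and that of all genes -0.003. *Lama4* was the only one of 11 laminin chains that passed by this test. *Sparc*, *Fbln2* and the integrin chains *Itgav*, *Itgb5* and *Itga3* were the other higher members, and *Agrn* was lower.

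*Itgav*, an alpha chain that binds vitronectin and fibronectin, was 1112, 1069, 1115, 1144 and 1169.8 in aged EH. It was 1392, 1425, 1397, 1406 and 1317 in aged DH. The groups lay well apart, with a log2 fold change of 0.31 ± 0.04 (adjusted p = 0.000647), the smallest adjusted p of the members here. *Itgb5*, a beta chain that pairs with *Itgav*, was 1650.5, 1652, 1618, 1533 and 1859.7 in aged EH and 2077, 1942, 1965, 1979 and 1814 in aged DH. A single EH rat, replicate 6, reached the DH range, and the log2 fold change was 0.24 ± 0.05 (adjusted p = 0.0124). Of other beta chains that can pair with *Itgav*, *Itgb1*, *Itgb3* and *Itgb8* did not pass by limma, edgeR or DESeq2. *Itgb6* passed by DESeq2 (adjusted p = 0.0237) but not by limma. *Itgb1* was 0.12 ± 0.06 (adjusted p = 0.273). *Itgb3*, *Itgb6* and *Itgb8* were 0.08 ± 0.23, 0.66 ± 0.21 (adjusted p = 0.0716) and 0.04 ± 0.08.

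*Lama4* was 653, 645, 713, 639.9 and 641 in aged EH and 806, 816, 853, 847 and 693 in aged DH. In DH 4 rats were above all EH rats and replicate 6 was not, and the log2 fold change was 0.28 ± 0.06 (adjusted p = 0.0117). *Sparc* was 43964, 47305, 48367, 47872 and 46031 in aged EH. It was 51936, 56184, 57546, 61657 and 54087 in aged DH. All DH rats exceeded all EH rats, at 0.27 ± 0.05 (adjusted p = 0.00392). *Itga3* was 2051, 2113, 2403, 2077 and 2037 in aged EH and 2390, 2323, 2481, 2401 and 2371 in aged DH. EH replicate 4 lay inside the DH range, and the log2 fold change of 0.17 ± 0.05 (adjusted p = 0.0398) did not pass when any library but EH replicate 4 was left out, with adjusted p up to 0.0998.

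*Fbln2*, a fibulin that binds nidogen and fibronectin, was 1050.5, 644, 631, 576 and 524 in aged EH. It was 723, 1180.4, 1518, 1227 and 1236 in aged DH. The spread was wide in both groups, with 1 high EH rat and 1 low DH rat, both replicate 1, and the log2 fold change was 0.79 ± 0.19 (adjusted p = 0.0228). Without aged EH replicate 5 or 6, or aged DH replicate 3 or 5, its adjusted p was up to 0.0633. *Agrn* was 4734, 4393, 5067, 4614 and 4214 in aged EH and 3840.3, 4155, 3802, 3854 and 4114 in aged DH. All DH rats were below all EH rats, at -0.22 ± 0.05 (adjusted p = 0.0128, and 0.0561 without the trend on the mean in limma).

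None of the 7 basement membrane collagens passed in aged DH by limma, edgeR or DESeq2, and 2 had an unadjusted p under 0.05. *Col4a1* was 0.18 ± 0.08 (adjusted p = 0.201), *Col4a2* -0.03 ± 0.09 and *Col4a5* -0.11 ± 0.10. Of 18 remodelling genes *Mmp9* was the 1 that passed by limma, and rose by 1.37 ± 0.23, while edgeR called 1 of the 18 higher and DESeq2 2. *Parva*, an integrin adaptor, fell at -0.15 ± 0.04. Of 13 genes of the dystrophin-glycoprotein complex 1 was lower by limma. Of 8 dystroglycan glycosylation genes 1 was lower by limma, and DESeq2 called 1 lower and 1 higher. No fibroblast, endothelial, mural or microglial marker passed by limma or edgeR, and 2 endothelial markers passed by DESeq2 (by limma 0, 3, 0 and 1 of them had an unadjusted p under 0.05). The fibroblast sum was 10880 to 17390 in aged DH and 10590 to 18110 in aged EH.

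Whether the response to DH differed between the ages was tested directly over all 20 rats. The contrast was the change in aged rats minus the change in adult rats. It passed for none of the 46 members and for 0% of 15326 genes by limma at an adjusted p under 0.05. Before adjustment p was below 0.05 for 4 members and for 1522 genes in all (9.93%). With the recovered reads edgeR gave 0 calls and DESeq2 55, none of them a member. Among the 4 members were *Lama2*, *Itgae* and *Fbln2*. *Lama2* had a difference of -0.24 ± 0.08 with a 95% interval of -0.40 to -0.07 (adjusted p = 0.304), from log2 fold changes of 0.21 in adult and -0.03 in aged rats. *Fbln2* had 0.63 ± 0.30 (0.01 to 1.25), from 0.15 and 0.79. For *Fn1*, at 0.41 in adult and 0.05 in aged rats, the interval of the difference was -0.76 to 0.05. For *Itgb1*, at 0.24 and 0.12, it was -0.28 to 0.04, and for *Itgav*, at 0.13 and 0.31, it was -0.04 to 0.39. Calls at 1 age only are thus not shown to differ between the ages.

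The adult and aged DH comparisons share no rats. *Lama4*, *Sparc* and *Itga3* rose in both, which is 27.3% of the 11 members called in adult DH and 42.9% of the 7 called in aged DH. Among all genes 585 were called in the same direction at both ages, 30.2% of the 1934 called in adult DH and 52.3% of the 1119 called in aged DH. The intervals of the difference between the ages were -0.22 to 0.13 for *Lama4*, -0.07 to 0.24 for *Sparc* and -0.21 to 0.03 for *Itga3*. *Nid2* and *Lamc1*, called in adult DH at 0.30 and 0.24, were 0.25 and 0.15 in aged DH, with adjusted p of 0.125 and 0.105. Their differences between the ages had intervals of -0.28 to 0.19 and -0.22 to 0.04. Among the basement membrane collagens all 7 differences were below 0 and 6 had an unadjusted p under 0.05, with a median of -0.333, but none passed the adjustment. *Col4a5* differed by -0.39 ± 0.11 (adjusted p = 0.258), and *Col4a1* by -0.33 ± 0.11 (adjusted p = 0.297). Marker lists moved in this contrast as well, with no gene passing by limma. Of 10 fibroblast markers 9 were below 0 (median -0.158), and of 9 mural markers 7 (median -0.197). All 6 oligodendrocyte markers were above 0 and 5 had an unadjusted p under 0.05 (median 0.297). Medians were -0.584 for 3 perivascular macrophage markers, 0.043 for endothelial and -0.007 for astrocyte markers.

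Set side by side, the 3 comparisons gave *Nid2* log2 fold changes of -0.87 in ageing, 0.30 in adult DH and 0.25 in aged DH. *Lama2* had -0.41, 0.21 and -0.03, and *Lamc1* -0.27, 0.24 and 0.15. *Itgb1* had -0.25, 0.24 and 0.12, and *Lama4* -0.28, 0.33 and 0.28. *Sparc* had -0.30, 0.18 and 0.27, and *Itgb2* 0.36, -0.47 and -0.22. Of the 14 members called in ageing, 8 were also called in adult DH, in which 12.7% of all genes tested were called. The share among all genes called in ageing was not computed. This overlap is therefore not shown to be particular to the members. The other members called in ageing were called in neither DH comparison. Among these, *Lamc3* had -0.51, -0.18 and -0.14, *Lama1* -0.32, -0.16 and -0.05, and *Dag1* -0.16, -0.05 and -0.07. *Lamb1* had -0.41, 0.04 and 0.02, *Fbln1* -0.38, 0.05 and 0.06, and *Itgam* 0.61, -0.10 and -0.38. The ageing and adult DH values share the adult EH rats, and the ageing and aged DH values share the aged EH rats, so the opposite signs are not independent. In all 21 of the 46 members were called in at least 1 comparison (45.7%), beside 20.4% of the 15137 genes tested in all 3. Members called in none include *Nid1*, *Lama5*, *Itga6*, *Itga7*, *Itgb8* and *Ntn4*, whose log2 fold changes lay between -0.19 and 0.17. *Ntn4* did pass in ageing without aged EH replicate 2 and in adult DH without adult DH replicate 4. Other members called in none had larger values. Among them were *Itgb6* at 0.66 and *Itgb7* at 0.59 in aged DH, and *Itga4* at 0.58 and *Itgax* at -0.55 in adult DH.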

How the data were processed

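SON punches of 20 rats were sequenced by the authors as stranded poly(A) libraries with 75 bp paired-end reads, trimmed, aligned with STAR to Rn6 and counted per gene with featureCounts. The aligner and counter versions were not given in the sources used. Each library column of the 3 deposited tables holds a signal that the authors made by dividing read counts by DESeq2 size factors, which they estimated separately for each table. The authors' fold changes and p-values in the same tables were not used. All 30 library columns were used, and symbols of the third table were joined by Ensembl identifier.

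Genes with a mean of at least 10 were tested with limma 3.58.1 in R 4.3.3 on log2 of the normalized count plus a pseudocount of 1, with variances moderated by an empirical Bayes trend on the mean. All tests were two-sided, p-values were adjusted by Benjamini-Hochberg across every gene tested, and the threshold was 0.05. Intervals of log2 fold changes are 95% intervals from the moderated fit. Whole reads were recovered by dividing each value by its library's step (100% of values whole within 0.01 of a read), identical for all 32402 genes in the 10 libraries found in 2 tables, and served edgeR 4.0.16 and DESeq2 1.42.0 as alternatives. Scripts were tested on simulated data. No 2 libraries of a group agreed within sampling noise. Replicate numbers in the titles are not stated to pair rats, and the main tests did not use them as pairs. The p-values measure the spread between rats and take rats as independent. Whole cages were assigned to EH or DH, as the methods state for the aged rats. Which rats shared a cage is not given for either age, so shared cages were not allowed for. Depth was 24268398 to 30348118 reads per library. Any member may be named, and those called are given by rat or as mean and SD; a few genes are not reported here. The members, the gene lists and the marker lists were chosen with earlier results of these data known. Coordinates are given only for RefSeq promoters, in GRCr8, which is not the build of the tables. Figures were drawn with matplotlib 3.10.9.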

Additional observations from a re-analysis of the deposited data

Results flagged for a closer look

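Of the 64 groups of 5 rats behind the 32 called values, 8 held 1 rat whose gap to its nearest neighbour exceeded Dixon's 95% value of 0.71 of the group's range, and chance gives about 1 in 20 groups. In aged EH, replicate 4 stood high for *Lama4* (713 in the ageing table and 712.8 in the aged DH table, beside at most 654) and for *Itga3* (2403 beside at most 2113). Replicate 1 of aged EH stood high for *Fbln2* (1051 beside at most 644). In adult EH, replicate 4 stood high for *Fn1* (5344 beside at most 4143). In adult DH, replicate 3 stood high for *Itga5* (291.3 beside at most 239) and *Itgb2* (310 beside at most 224), and replicate 5 stood low for *Lamc1* (2202 beside at least 2374). Of these values only the *Fbln2* and *Itga3* calls in aged DH were lost on leaving out some single library, and neither was lost without the rat that stood apart.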

How the results depend on the processing

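Of the 32 called values 15 kept their call and direction under every alternative run, 17 lost it under at least 1 and none reversed. With 1 library left out 24 kept it each time, and the number of members called ranged from 10 to 14 in ageing, 9 to 12 in adult DH and 5 to 8 in aged DH, with 0 each time for the difference between the ages. Without the trend in limma 7 members were called in ageing (*Lama1*, *Lamb2*, *Fbln1*, *Itgb1*, *Dag1*, *Itgam* and *Itgb2* lost their calls) and 4 in aged DH (*Agrn*, *Fbln2* and *Itga3* lost theirs). With a replicate block, which could use 4 numbers shared by the groups in each DH comparison and so fewer rats, 7 members were called in adult DH and 4 in aged DH, beside 13 in ageing with 5 numbers and 0 for the difference between the ages. Same-numbered rats did not deviate together (r from -0.083 to 0.162). Other pseudocounts, filters, scalings, edgeR and DESeq2 moved no count of members by more than 1.5 times, including 1 scaling of all 20 libraries, which was chosen after seeing the data. Across these alternatives the median of all genes shifted by at most 0.0097 on the log2 scale. With 5 rats a group, members with low counts such as *Itgb7* and *Itga10* had wide intervals (-1.06 to 0.28 and -0.90 to 0.42 in ageing), and a missing call there does not show that a gene was unchanged.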

Other observations

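The netrins resemble laminins in their N-terminal part, and their receptors were listed with them. Neither *Ntn1* nor *Ntn4* was called. Of 7 netrin receptor genes, *Unc5c* rose in DH at both ages, by 0.23 ± 0.05 (adjusted p = 0.0112) in adult and 0.23 ± 0.06 (adjusted p = 0.0336) in aged rats on the log2 scale (limma). *Unc5d* was lower in adult DH, at -0.25 ± 0.06, and none of the 7 was called in ageing by limma, edgeR or DESeq2 (1 had an unadjusted p under 0.05).

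*Mmp9* was higher in all 3 comparisons. It averaged 25.1 ± 10.6 (SD, n = 5) in adult EH and 57.5 ± 23.9 in aged EH in the ageing table. It averaged 69.7 ± 20.2 in adult DH and 146 ± 37.9 in aged DH in their own tables. *Mmp14*, lower in ageing, was 0.01 ± 0.10 in adult DH and -0.11 ± 0.11 in aged DH and was not called in either.

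Of the remaining marker lists, none of 3 blood genes was called in ageing or adult DH by limma, edgeR or DESeq2. In adult DH all 3 were below 0 with an unadjusted p under 0.05 by limma (median -0.749). In aged DH this also held for all 3 (median -0.827). There limma called *Hbb* lower, at -0.84 ± 0.23, and edgeR and DESeq2 each called 2 of the 3 lower. No lymphocyte or granulocyte marker (4 tested) and no choroid plexus or ependymal marker (4 tested) was called in any comparison by limma or edgeR, and 1 lymphocyte or granulocyte marker was lower in adult DH by DESeq2. Their summed levels were at most 109.7 and 664.1 normalized counts in any library. *Avp* was higher in adult DH, at 0.48 ± 0.12, and *Oxt* was called in none by limma and was 0.26 ± 0.07 (adjusted p = 0.0524) in ageing. In ageing edgeR and DESeq2 each called 1 of these 2 genes higher. Of 6 oligodendrocyte markers 1 was lower in adult DH and 1 higher in aged DH by limma, and DESeq2 called 2 higher in aged DH. No astrocyte marker (7 tested) was called in DH at either age by limma, edgeR or DESeq2.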
